A study of Mus musculus with 16 samples.

Results

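The intercalated disc is the junction that couples heart muscle cells end to end, and the transcripts of 10 of its genes were followed here: Dsp, Pkp2, Jup, Dsg2, Dsc2, Cdh2, Ctnna3, Vcl, Gja1 and Tjp1. They were chosen by name, not by their values, from the 23946 genes of the deposited expression table. All 10 passed the filter on low values. Male FVB mice, an inbred strain, aged 10 to 13 weeks, had a pulmonary artery banding, which narrows the vessel that the right ventricle pumps into, or a sham operation. PolyA RNA of the right and of the left ventricular free wall was sequenced in 16 libraries, 4 in each of 4 groups: sham right ventricle, banded right ventricle, sham left ventricle and banded left ventricle. No gene was altered in any group, and the study compared the failing, pressure-loaded right ventricle with its control. The labels call the operated group PS, which was read as banded because the protocol names only banding and sham. In both ventricles the banded libraries are called PS_9552, PS_9553, PS_9561 and PS_9564. Those of the sham groups are numbered 1 to 4.

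At the disc, desmosomes anchor the intermediate filament desmin: the cadherins desmoglein 2 and desmocollin 2 bridge the cells, and plakoglobin, plakophilin 2 and desmoplakin link them to the filaments. Adherens junctions join the actin filaments of neighbouring cells through N-cadherin, the catenins and vinculin, and in heart muscle both junction types mix in an area composita, where alpha-T-catenin binds plakophilin 2. Gap junction channels, made in ventricular muscle mainly of connexin 43, carry the electrical impulse from cell to cell. Inherited variants of the desmosomal genes are a known cause of arrhythmogenic cardiomyopathy, a disease often marked in the right ventricle.

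RefSeq promoters (build GRCm38.p6, from a C57BL/6J genome, whereas these mice were FVB) matched 6 of the 10 genes by symbol. Pkp2, Dsg2, Dsc2 and Cdh2 are named only. The stretches from 250 to 51 bases before the annotated start are shown for Dsp and Jup, 2 partners in the desmosomal plaque, for Gja1, the connexin, and for Vcl, whose window held the rarest of the matches. They lie at chr13:38151044-38151243 on the + strand (Dsp), chr11:100397841-100398040 on the - strand (Jup), chr10:56377050-56377249 on the + strand (Gja1) and chr14:20929148-20929347 on the + strand (Vcl), each written 5′ to 3′ on the gene's strand, with capitals for matches to a searched motif on either strand.
Dsp: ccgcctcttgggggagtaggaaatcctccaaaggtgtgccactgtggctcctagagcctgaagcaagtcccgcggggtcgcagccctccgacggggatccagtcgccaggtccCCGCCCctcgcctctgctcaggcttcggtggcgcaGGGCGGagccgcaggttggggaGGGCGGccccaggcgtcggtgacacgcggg
Jup: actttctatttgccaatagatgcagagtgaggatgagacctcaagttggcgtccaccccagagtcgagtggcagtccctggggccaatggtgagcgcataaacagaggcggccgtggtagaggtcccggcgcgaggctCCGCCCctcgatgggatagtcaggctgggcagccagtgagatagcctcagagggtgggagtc
Gja1: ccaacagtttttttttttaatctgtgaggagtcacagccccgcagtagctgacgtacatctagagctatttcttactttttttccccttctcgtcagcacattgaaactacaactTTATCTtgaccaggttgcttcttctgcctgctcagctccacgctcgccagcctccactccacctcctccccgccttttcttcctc
Vcl: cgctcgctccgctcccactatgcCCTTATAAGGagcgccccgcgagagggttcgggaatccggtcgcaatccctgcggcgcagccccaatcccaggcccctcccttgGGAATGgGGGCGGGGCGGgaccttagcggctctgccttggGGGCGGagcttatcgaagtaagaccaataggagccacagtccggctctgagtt
The 6 motifs searched were the SRF CArG box and the MEF2 site by name, CATTCC as the TEAD site, TGANTCA as the AP-1 site, GGGCGG as the GC box and AGATAA as a GATA site. Dsp held 3 GGGCGG matches, with first bases 137, 102 and 80 before the start. Jup held 1 GGGCGG match, 112 bases before the start, and Gja1 held 1 AGATAA match, 135 bases before it. Vcl held 1 SRF CArG box, 227 bases before the start, 1 CATTCC match at 143, and 3 GGGCGG matches at 136, 131 and 103, of which the first 2 overlap. The CArG box occurred in 1.16%, CATTCC in 10.7%, GGGCGG in 24.6% and AGATAA in 8.42% of the 32851 promoter windows of the same length, so these matches are a description of the windows and not of any factor.

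The deposited values are FPKM, fragments scaled by transcript length and by the mapped fragments of the library. The gene of the rRNA precursor, Rn45s, had a value of 0 in 5 libraries, left ventricle PS_9552, PS_9553 and PS_9561 and right ventricle PS_9561 and PS_9564. These 5 had scale factors of 1.22 to 1.28 (median ratio to the average library over 8211 genes), against 0.840 to 1.02 in the other 11. Genes are therefore called risen or fallen only where limma passed an adjusted p of 0.05 in the same direction both on the values as deposited and on values divided by these factors (rescaled). Sham right ventricular libraries were also the shallowest, with an estimated 334965 to 1496240 fragments against 2371370 to 5308840 in the banded right ventricle. Estimated fragments behind a gene ran there from 292 to 843 for Dsp down to 4.40 to 32.7 for Dsc2 and 5.23 to 19.9 for Ctnna3, where counting error alone reaches 47.7% and 43.7% of the lowest value.

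The 10 genes spanned a wide range of levels per length. In sham right ventricle Gja1 led with 123 ± 25.6 FPKM (SD, n = 4), ahead of Dsp with 72.4 ± 14.2 and Jup with 62.5 ± 10.6. Pkp2 (27.4 ± 3.24), Vcl (23.6 ± 2.07) and Cdh2 (17.4 ± 4.02) came next, and Tjp1, Dsg2, Dsc2 and Ctnna3 had 3.84 to 8.79 FPKM. Sham libraries of Gja1 did not overlap with those of Dsp, nor Jup with Pkp2, nor Cdh2 with Tjp1, whereas all other neighbours in that order overlapped. In sham left ventricle Gja1 also led, with 196 ± 28.1 FPKM against 115 ± 11.9 for Dsp, and those ranges did not overlap. After banding the first 2 places were shared: Dsp had 184 ± 60.0 and Gja1 184 ± 75.9 FPKM in the right ventricle, and 188 ± 51.9 and 178 ± 16.1 in the left, with overlapping ranges in both. The plot of FPKM by library shows these levels gene by gene.

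**Figure D1:**
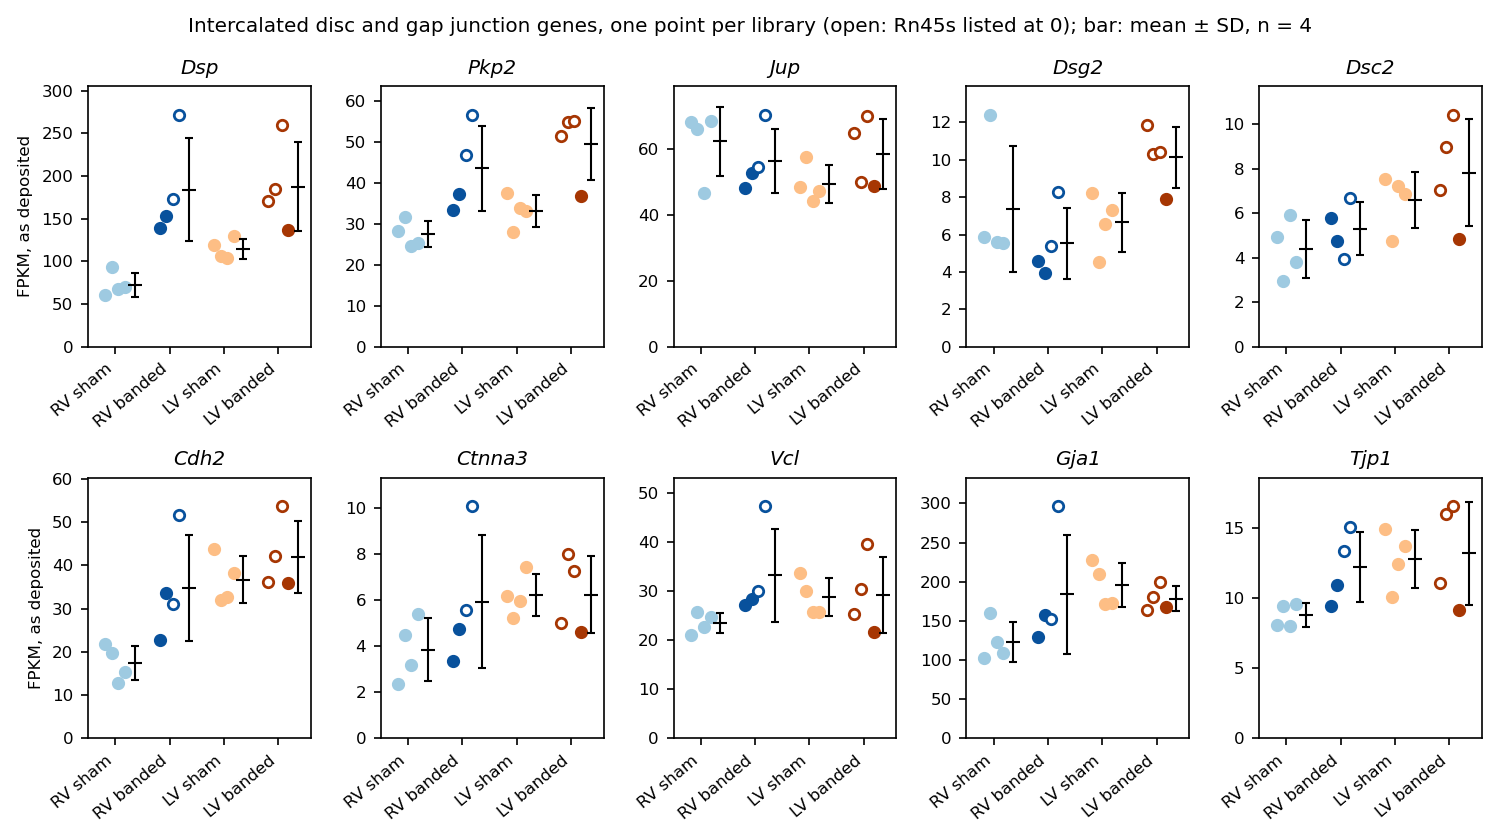
FPKM of each gene (vertical axes, linear from 0) in the 16 libraries, grouped by ventricle and operation, with a bar for the mean ± SD of 4 libraries and open points for the 5 libraries in which Rn45s was listed at 0. Dsp libraries of the banded right ventricle lie at 139 to 272 FPKM, above all sham right libraries (60.0 to 92.8), while Jup libraries of the same groups overlap.

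In the banded right ventricle, 3 of the 10 genes rose and none fell: Dsp, encoding the plaque protein desmoplakin, Cdh2, encoding N-cadherin, and Pkp2, encoding plakophilin 2. Over all 12100 tested genes, 10.5% rose and 4.93% fell by the same rule. The median log2 difference of the 10 genes was 0.46 as deposited and 0.29 rescaled, beside 0.26 and 0.11 for all tested genes. At an unadjusted p under 0.05, 5 of the 10 were higher, beside 26.2% of all tested genes, and none was lower. In these bulk samples, fewer cells of a type and less RNA per cell cannot be told apart. Among libraries with an Rn45s value, which left 2 banded right libraries, 1 of the 10 still passed, Dsp.

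**Figure D2:**
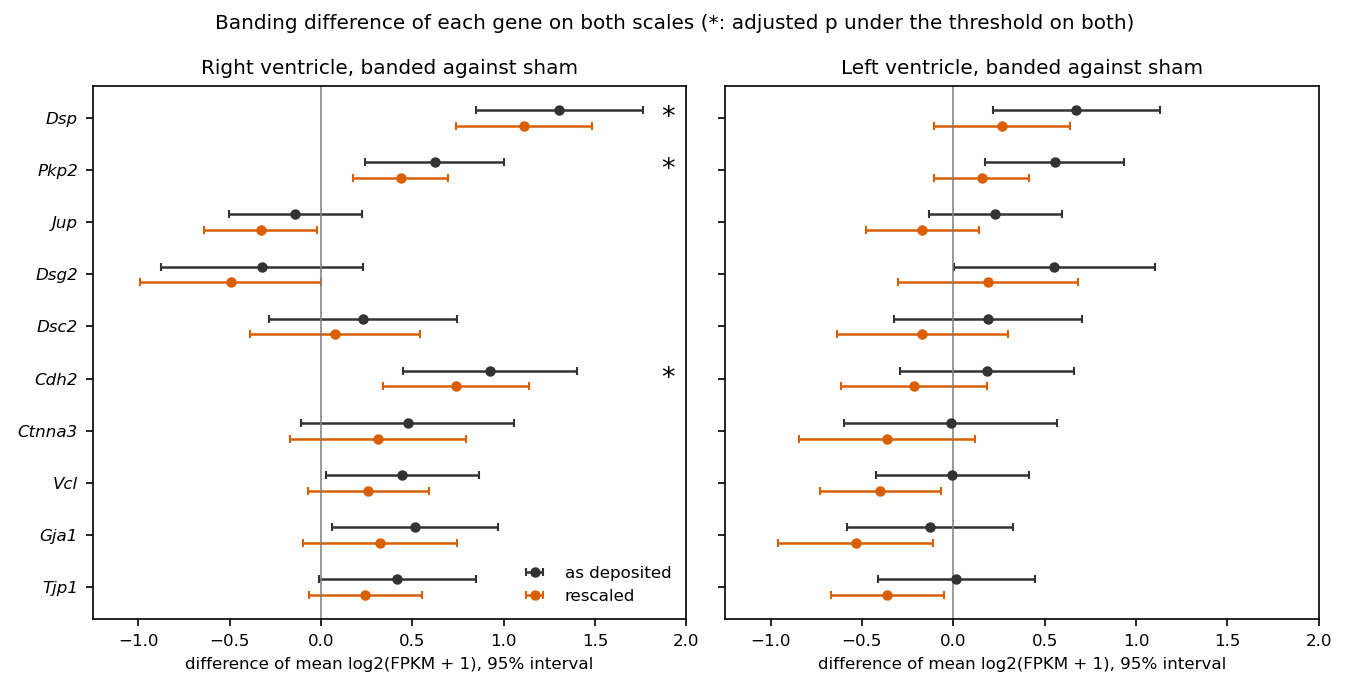
Difference between banded and sham libraries in mean log2(FPKM + 1) (horizontal axes) with its 95% interval from limma, for each gene in the right (left panel) and left ventricle (right panel), as deposited and rescaled. Stars mark Dsp, Pkp2 and Cdh2 in the right ventricle, the genes that passed on both scales, and in the left ventricle no gene has a star.

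Dsp had the largest difference of the 10. Sham right ventricular libraries 1 to 4 held 60.0, 92.8, 67.2 and 69.6 FPKM, and banded libraries PS_9552, PS_9553, PS_9561 and PS_9564 held 139, 153, 173 and 272 FPKM. Every banded library exceeded every sham library, also after rescaling. The log2 difference was 1.30 ± 0.22 (SE; limma adjusted p = 0.0011), a 2.47-fold difference on the log2(FPKM + 1) scale, and 1.11 rescaled (limma adjusted p = 0.00067). With any single library of the 16 left out, Dsp still passed, at log2 differences of 1.10 to 1.43. Without the libraries with Rn45s at 0 it was 1.02 (limma adjusted p = 0.016). Dsp is a long transcript of 9592 nt, and the 483 tested genes within a factor of 1.2 of that length had a median difference of 0.41 as deposited. With a correction of the rescaled values for each library's trend with length and GC content, the Dsp difference was 0.97 (limma adjusted p = 0.00051).

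Pkp2, whose protein sits between desmoplakin and the cadherins and also supports connexin and sodium channel placement at the disc, moved less. The sham right libraries held 28.2, 31.7, 24.5 and 25.3 FPKM, and the banded ones 33.3, 37.4, 46.7 and 56.5 FPKM. The groups did not overlap, but sham library 2 and banded library PS_9552 lay close together, and both libraries with Rn45s at 0 were the highest. The log2 difference was 0.62 ± 0.18 (SE; limma adjusted p = 0.027) and 0.44 rescaled (adjusted p = 0.021). It no longer passed without sham library 3 or 4 or banded library PS_9561 or PS_9564 (as deposited, log2 differences 0.49 to 0.74 over all omissions, largest limma adjusted p = 0.090). Nor did it pass without the Rn45s-zero libraries (0.36, adjusted p = 0.31) or once corrected for length and GC (0.34, adjusted p = 0.081).

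Jup, encoding plakoglobin, which serves both desmosomes and adherens junctions, did not pass the test. Its sham right libraries held 68.4, 66.2, 46.7 and 68.6 FPKM, and its banded libraries 48.3, 52.7, 54.6 and 70.5 FPKM. The groups overlapped: sham library 3 was the lowest of all 8 and banded library PS_9564 the highest. The log2 difference was -0.14 ± 0.17 (95% interval -0.50 to 0.22; limma adjusted p = 0.59) and -0.33 rescaled (adjusted p = 0.12).

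The desmosomal cadherins Dsg2 and Dsc2, the adhesive parts of the junction, had low levels and wide spreads. Dsg2 libraries held 5.87, 12.4, 5.59 and 5.55 FPKM in sham right ventricle and 4.57, 3.93, 5.40 and 8.25 FPKM in banded right ventricle. Sham library 2, the shallowest of all 16, stood apart at 12.4. The Dsg2 difference was -0.32 ± 0.26 (SE; limma adjusted p = 0.39) on the log2 scale, with an interval of -0.87 to 0.23. Rescaled it was -0.49 (limma adjusted p = 0.14). Rescaled and corrected for length and GC content, it was -0.79 and passed as lower (limma adjusted p = 0.025). Dsc2 libraries held 4.93, 2.96, 5.94 and 3.80 FPKM in the sham and 5.78, 4.77, 3.96 and 6.69 FPKM in the banded group, which overlapped, with a log2 difference of 0.23 (interval -0.28 to 0.75).

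Cdh2, the adhesive cadherin of the adherens junction, was the third gene to rise. Sham right libraries held 21.7, 19.7, 12.9 and 15.3 FPKM, and banded libraries 22.8, 33.6, 31.0 and 51.7 FPKM. The groups were free of overlap, although sham library 1 and banded library PS_9552 lay close together. The log2 difference was 0.93 ± 0.23 (SE; limma adjusted p = 0.011) and 0.74 rescaled (adjusted p = 0.0125). It passed with any single library left out (0.72 to 1.10, largest limma adjusted p = 0.040, as deposited). Without the libraries with Rn45s at 0 it was 0.67 and did not pass (limma adjusted p = 0.17). Rescaled and corrected for length and GC content it was 0.53 and passed narrowly (limma adjusted p = 0.049). In a fit to the right ventricular libraries alone it did not pass (limma adjusted p = 0.057, as deposited).

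Ctnna3 and Vcl, the actin-side partners of the cadherin complex, did not pass the test. Ctnna3, encoding alpha-T-catenin, had 2.34, 4.49, 3.15 and 5.38 FPKM in sham and 3.35, 4.74, 5.57 and 10.1 FPKM in banded right libraries, which overlapped (log2 difference 0.47, interval -0.11 to 1.06). Vcl, encoding vinculin, had 21.1, 25.8, 22.7 and 24.7 FPKM in sham and 27.2, 28.3, 30.1 and 47.3 FPKM in banded libraries. As deposited the Vcl groups did not overlap, and after rescaling they did. Its log2 difference was 0.45 ± 0.20 (SE; limma adjusted p = 0.12), 0.26 rescaled, and 0.01 rescaled with the correction for length and GC content. Counted as deposited, 4 of the 10 genes (Dsp, Pkp2, Cdh2 and Vcl) had every banded right library above every sham library, as did 12.6% of all tested genes.

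Gja1, encoding connexin 43, and Tjp1, encoding the scaffold ZO-1 that binds its tail, also fell short of the threshold. Gja1 libraries held 103, 159, 123 and 108 FPKM in sham and 129.8, 157, 152 and 296 FPKM in banded right ventricle. A single library, PS_9564, set the banded group apart, and the other 3 lay within the sham range. The log2 difference of Gja1 was 0.52 ± 0.21 (SE; limma adjusted p = 0.10), 0.32 rescaled, 0.26 without library PS_9564 and -0.01 with the correction for length and GC content. Tjp1 had 8.06, 9.47, 8.02 and 9.60 FPKM in sham and 9.45, 10.95, 13.4 and 15.1 FPKM in banded libraries, and the groups met at 9.45 to 9.60. Its log2 difference was 0.42 (interval -0.01 to 0.85).

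The composition of the set can be read within each library, where the library's scale cancels. A library's trend with length and GC content does not cancel, and shares and ratios were not corrected for it. Each gene's FPKM was expressed as a share of the sum over the 10 genes. Dsp made up 18.6 to 21.8% of that sum in sham right libraries and 31.4 to 33.6% in banded ones. Jup made up 14.6 to 21.2% in sham and 8.45 to 11.4% in banded libraries, and Dsg2 1.65 to 2.92% and 0.808 to 1.08%. In these 3 genes the groups did not overlap. Shares within a library are tied, so a rise of Dsp, here within sums of 320 to 425 FPKM in sham and 424 to 834 FPKM in banded libraries, by itself lowers the shares of genes that do not keep pace, and Jup FPKM overlapped between the groups. Gja1 held 31.7 to 38.5% in sham and 29.4 to 35.5% in banded right libraries, which overlapped. An exact two-sided permutation test gave 0.0286 for each of the 3, the smallest p that 4 against 4 libraries allow, and 0.11 after Benjamini-Hochberg adjustment over 40 such tests, so none passed. Leaving out each library in turn gave a Dsp share difference of 11.4 to 12.5 percentage points, and 11.6 was obtained without the libraries with Rn45s at 0.

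**Figure D3:**
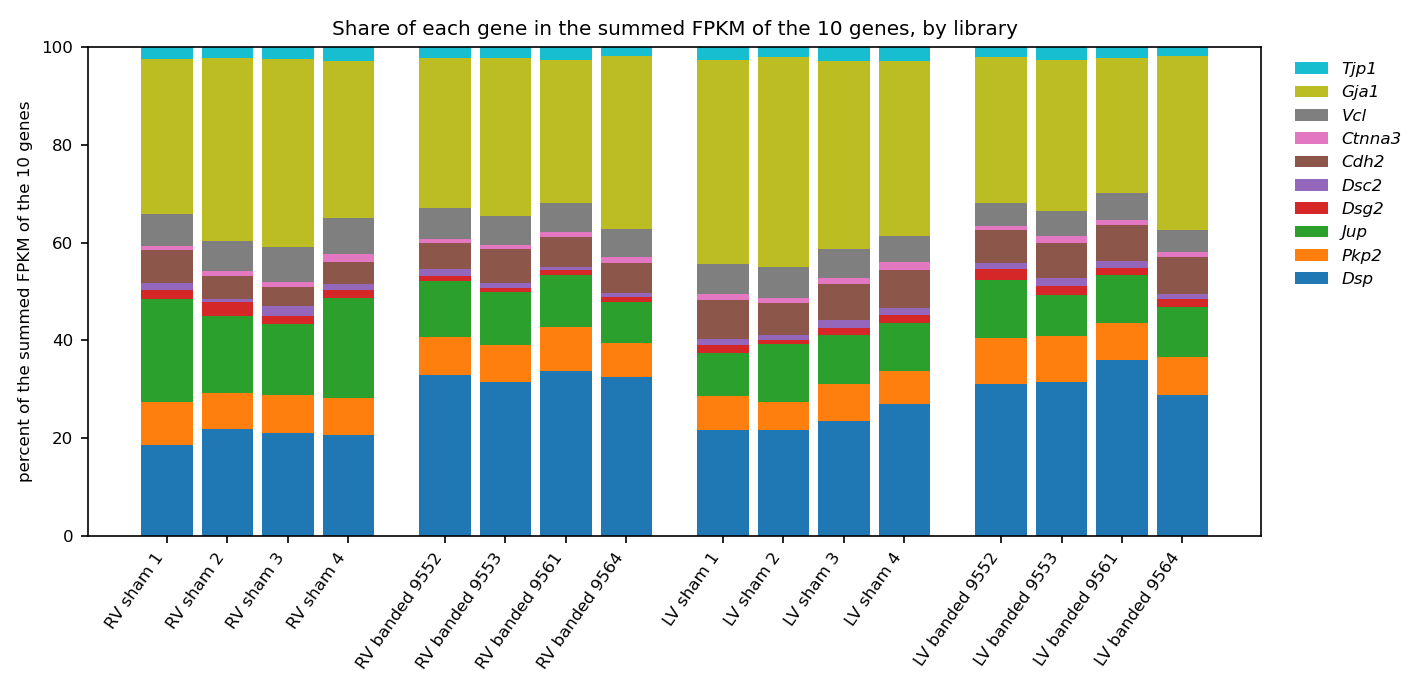
Stacked bars give each gene's share, in percent, of the summed FPKM of the 10 genes in each of the 16 libraries. The Dsp segment at the base takes 18.6 to 21.8% in sham and 31.4 to 33.6% in banded right libraries, and the Jup segment narrows from 14.6 to 21.2% to 8.45 to 11.4%.

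Ratios between desmosomal genes put the same values pairwise. The Dsp to Jup ratio was 0.878, 1.40, 1.44 and 1.01 in sham right libraries and 2.88, 2.90, 3.18 and 3.85 in banded ones. All 4 banded libraries lay above all 4 sham libraries, and the 2 banded libraries with an Rn45s value (2.88 and 2.90) were close to the others. Pkp2 to Jup went from 0.369 to 0.525 in sham to 0.690 to 0.857 in banded right libraries, without overlap. Dsp to Pkp2 was 2.13 to 2.93 in sham and 3.71 to 4.81 in banded libraries, Dsp to Dsg2 7.48 to 12.5 and 30.5 to 38.9, and Pkp2 to Dsg2 2.55 to 4.81 and 6.85 to 9.51. By contrast Jup to Dsg2, 5.34 to 12.4 and 8.54 to 13.4, overlapped. In the exact permutation test each ratio without overlap had p = 0.0286, which became 0.10 after adjustment over 40 tests.

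**Figure D4:**
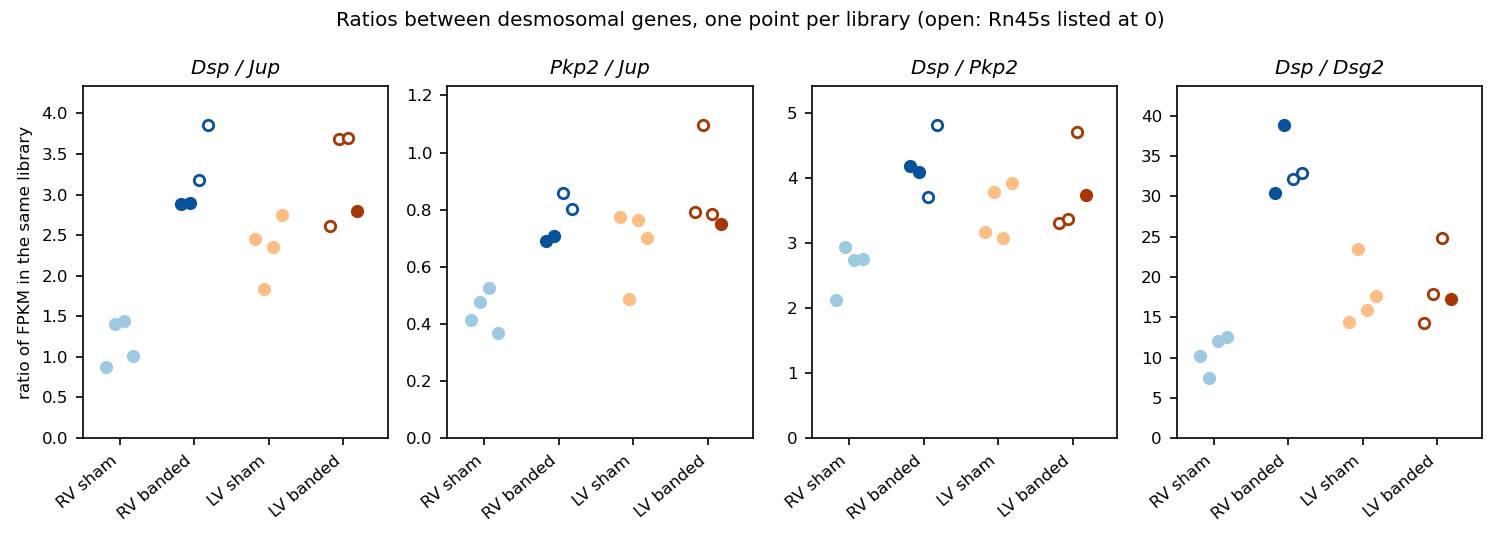
Ratio of the FPKM of 2 desmosomal genes in the same library (vertical axes, linear from 0) for 4 pairs and the 4 groups, with open points for libraries in which Rn45s was listed at 0. For Dsp to Jup the sham right libraries (0.878 to 1.44) lie below every other library of the series, whose lowest value is 1.84.

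In the left ventricle, whose own outflow was not banded, none of the 10 genes passed in the limma fit on both scales, against 2.74% of all tested genes (2.44% higher and 0.298% lower). Higher genes made up 89.1% of these left ventricular calls, 97.8% as deposited alone and 60.8% rescaled alone. At an unadjusted p under 0.05, 3 of the 10 were higher as deposited, beside 29.0% of all tested genes. On the deposited values alone Dsp and Pkp2 passed as higher, as did 14.3% of all tested genes. Dsp was 119, 106, 104 and 129.6 FPKM in sham and 170.2, 184, 259 and 137 FPKM in banded left libraries. These did not overlap as deposited (log2 difference 0.67 ± 0.22 SE, limma adjusted p = 0.046), but rescaled the difference was 0.27 (adjusted p = 0.44) and the groups overlapped. Pkp2 was 37.5, 28.0, 33.8 and 33.1 FPKM in sham and 51.5, 54.8, 55.2 and 36.6 FPKM in banded left libraries. Its 3 high libraries were those with Rn45s at 0, and the difference of 0.55 (limma adjusted p = 0.048) became 0.16 rescaled. Gja1 was 228, 210.3, 172 and 173 FPKM in sham and 164, 181, 199.7 and 168 FPKM in banded left libraries, with a log2 difference of -0.13 as deposited and -0.53 rescaled (limma adjusted p = 0.14).

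The other 7 genes had left ventricular log2 differences between -0.02 and 0.55 as deposited and between -0.40 and 0.19 rescaled. For Jup, Dsc2, Cdh2 and Tjp1 the sign changed from positive as deposited to negative rescaled, so no direction is given for them. Dsp held 21.7 to 26.9% of the set's sum in sham and 28.8 to 35.9% in banded left libraries, Gja1 35.8 to 43.1% and 27.6 to 35.4%, and Pkp2 5.74 to 7.61% and 7.63 to 9.41%. None of these 3 pairs of ranges overlapped (exact permutation p = 0.0286, adjusted 0.11). The left Dsp to Jup ratio was 1.84 to 2.75 in sham and 2.62 to 3.70 in banded libraries, which overlapped.

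The banding difference itself was compared between the ventricles with an interaction term. None of the 10 genes passed in limma on both scales, against 3.98% of all tested genes (13.3% of these calls positive, 38.0% on the rescaled values alone), and 3 had an unadjusted p under 0.05, beside 18.2% of all tested genes. Cdh2 had the smallest adjusted p of the set on the rescaled values. Its right-minus-left difference was 0.74 on the log2 scale as deposited (interval 0.07 to 1.42; limma adjusted p = 0.22) and 0.95 rescaled (adjusted p = 0.047), a scale on which 2.16% of all tested genes passed as higher. For Dsp it was 0.63 (interval -0.02 to 1.28; limma adjusted p = 0.29) and 0.85 rescaled (adjusted p = 0.057). For Gja1 it was 0.64 (interval 0.0025 to 1.29; limma adjusted p = 0.27) and 0.86 rescaled (adjusted p = 0.085). A larger response of Dsp, Cdh2 or Pkp2 on the right than on the left was thus not shown on both scales. Dsg2 had the only interval below 0 as deposited, -0.88 (-1.66 to -0.10; limma adjusted p = 0.21).

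Sham right and left ventricles differed in Cdh2. N-cadherin transcripts were at 17.4 ± 4.02 FPKM in sham right and 36.7 ± 5.49 FPKM in sham left ventricle (SD, n = 4), and the left libraries, 43.7, 31.9, 32.8 and 38.4 FPKM, all lay above the right ones. The log2 difference, right minus left, was -1.05 ± 0.23 (SE; limma adjusted p = 0.021) and -1.11 rescaled (adjusted p = 0.0059). It missed the threshold without left sham library 1 or 3 (largest limma adjusted p = 0.071, as deposited). With 1 of 10 genes lower on the right, the background was 1.33% of all tested genes, and 65.7% of all calls were higher on the right, against 40.8% rescaled alone. Gja1, Dsp and Tjp1 were also lower on the right without overlap, but passed only on the rescaled values (limma adjusted p = 0.036, 0.021 and 0.033), where 5.10% of all tested genes were lower. Counted this way, 4 of 10 genes had all sham right libraries below all sham left ones, as did 5.04% of all tested genes. Jup, at 62.5 FPKM on the right and 49.4 on the left, and Dsg2 were the 2 genes above 0. This comparison shares the sham right libraries with the right ventricular banding comparison, so the 2 are not independent.

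Between banded right and left ventricles none of the 10 genes passed in limma on both scales, against 1.57% of all tested genes (11.6% of these calls higher on the right, 32.0% rescaled alone), and 1 had an unadjusted p under 0.05, beside 15.4% of all tested genes. That gene was Dsg2, at 5.54 ± 1.91 FPKM on the right and 10.1 ± 1.64 on the left (SD, n = 4; log2 difference -0.80, limma adjusted p = 0.12). As deposited, its right libraries, 3.93 to 8.25 FPKM, met the left ones, 7.91 to 11.9 FPKM. Rescaled, the groups did not overlap (log2 difference -0.65, limma adjusted p = 0.16). Nor did the Dsg2 shares of the set's sum, 0.808 to 1.08% on the right and 1.44 to 2.17% on the left (exact permutation p = 0.0286, adjusted 0.11). Cdh2, 34.8 and 42.0 FPKM, and Dsp, 184 and 188 FPKM, overlapped between the banded ventricles.

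Among partner genes of the desmosome, 5 of 14 were abundant enough to test, and in the right ventricle 1 rose and 1 fell. Of all tested genes 10.5% rose and 4.93% fell there. Des, encoding desmin, the filament that desmoplakin anchors, went from 490 ± 62.8 to 781 ± 71.3 FPKM (SD, n = 4; log2 difference 0.68, limma adjusted p = 0.018). That call was lost in 14 of 16 single-library omissions and kept only without left sham library 1 or 4. As deposited, log2 differences were 0.62 to 0.75 and the largest limma adjusted p was 0.051, while a call also needed the rescaled values to pass. Ppl, encoding the plakin periplakin, fell from 2.34 ± 0.775 to 0.859 ± 0.495 FPKM (log2 difference -0.85, limma adjusted p = 0.021), a call lost without banded library PS_9553. On the left Des rose from 360 ± 104 to 972 ± 153 FPKM, as did Perp, a desmosomal membrane protein (47.5 ± 12.2 to 99.6 ± 17.8), a call kept in 16 of 16 omissions for Des and in 10 of 16 for Perp. Of all tested genes 2.44% rose on the left. Of 16 tested adherens junction and area composita partners, 1 rose in the right ventricle, beside 10.5% of all tested genes. This was Ctnnb1, encoding beta-catenin, from 67.1 ± 7.65 to 116 ± 20.4 FPKM (log2 difference 0.77, limma adjusted p = 0.0066). None of the 16 passed in the left ventricle, where 3 were higher at an unadjusted p under 0.05 in limma (29.0% of all tested genes were). None of 7 tested beta-catenin target and partner genes passed in the right ventricle, where 4 were higher at an unadjusted p under 0.05 (26.2% of all tested genes were).

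Of 5 tested connexins and pannexins other than Gja1, 2 rose in the right ventricle, beside 10.5% of all tested genes. None passed in the left, where 4 were higher at an unadjusted p under 0.05 in limma (29.0% of all tested genes were). Gjc1, encoding connexin 45, a connexin of the conduction system and embryonic heart, had 6.01 ± 1.60 FPKM in sham and 14.5 ± 5.10 in banded right ventricle (SD, n = 4; log2 difference 1.12, limma adjusted p = 0.0040). Panx1, encoding a membrane channel that forms no junction, had 0.670 ± 0.832 and 1.91 ± 0.499 FPKM, with overlapping groups. The Gjc1 call was kept in 16 of 16 single-library omissions and the Panx1 call in 2 of 16 (largest limma adjusted p = 0.12, as deposited). Per length, Gja1 stayed far above both in every group, with means of 123 to 196 FPKM.

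Disc-associated scaffolds and channels gave 3 risen genes of 18 tested in the right ventricle and none fallen. Of all tested genes 10.5% rose and 4.93% fell. The median log2 difference of the list was 0.43, beside 0.26 for all tested genes. Xirp2, encoding a Xin-repeat actin-binding protein of the disc, went from 9.29 ± 3.12 to 74.9 ± 37.8 FPKM (SD, n = 4; log2 difference 2.80, limma adjusted p = 0.00037). Sorbs2, encoding an adaptor of Z-discs and intercalated discs, went from 31.7 ± 7.39 to 98.6 ± 38.4 FPKM. Nrap, which links actin to the disc during myofibril assembly, rose from 91.3 ± 23.7 to 188 ± 79.5 FPKM, with overlapping groups on both scales. Xirp2 and Nrap also rose in the left ventricle, to 84.6 ± 47.3 and 270.1 ± 69.1 FPKM, where 2.44% of all tested genes rose. Of 16 single-library omissions, the right ventricular call was kept in 16 for Xirp2 and Sorbs2 and in 14 for Nrap, lost without PS_9561 or PS_9564, and the left one in 7 for Xirp2 and 11 for Nrap, so that 0 to 2 of the list passed on the left. For Sorbs2 the right difference exceeded the left by 1.52 on the log2 scale (limma interaction, adjusted p = 0.029), a call kept in 9 of 16 omissions.

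Partners of vinculin at the costamere, the lateral attachment of muscle cells to the matrix, gave 5 risen and 3 fallen genes of 23 in the right ventricle. Of all tested genes 10.5% rose and 4.93% fell. Enah, an actin-elongation factor, went from 8.34 ± 4.17 to 39.0 ± 18.6 FPKM, and Itgb1, the beta 1 integrin, from 31.4 ± 2.78 to 74.2 ± 9.76 FPKM (SD, n = 4; log2 differences 2.09 and 1.21, limma adjusted p = 0.00062 and 0.0019). The others that rose were Tln1, Actn1 and Nexn. Ldb3, a Z-disc protein, fell from 505 ± 82.8 to 298 ± 55.7 FPKM and Itga7, the muscle laminin receptor subunit, from 62.5 ± 7.51 to 45.8 ± 5.003 FPKM, and Itgb1bp2 fell too. On the left 3 of 23 rose (Itgb1, Actn2 and Nexn) and none fell, beside 2.44% and 0.298% of all tested genes. However, 0 to 3 passed with 1 library left out. The calls of Itgb1, whose left groups overlapped, and Actn2 were kept in 7 and 6 of 16 omissions. The right ventricular calls of Enah, Itgb1 and Ldb3 were kept in all 16 and that of Itga7 in 11. Among 16 genes for trafficking and turnover of junction proteins, Smurf2, Mapre1 and Nedd4 rose and Cav3 fell in the right ventricle. There 10.5% of all tested genes rose and 4.93% fell. Mapre1, encoding EB1, a microtubule tip protein that guides connexin delivery, went from 5.03 ± 0.821 to 9.75 ± 2.41 FPKM, and Cav3, muscle caveolin, from 102 ± 17.5 to 48.0 ± 7.05 FPKM (limma adjusted p = 0.0011). The Cav3 call was kept in all 16 omissions, that of Mapre1 was lost without PS_9561 or PS_9564, and that of Smurf2 without PS_9564. On the left 1 of the 16 genes rose, beside 2.44% of all tested genes. This was again Mapre1, from 5.74 ± 0.938 to 12.1 ± 3.39 FPKM (log2 difference 0.93, limma adjusted p = 0.011), a call kept in 7 of 16 omissions.

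Markers of the cell types that a ventricular wall could hold moved with the right ventricular groups as well. The summed FPKM of 8 cardiomyocyte markers was 30579 to 34191 in sham and 19670 to 27968 in banded right libraries. Of the 8, 3 fell (Tnni3, Myl2 and Myl3), beside 4.93% of all tested genes. Medians of Tnnt2 and Myh6 were also lower in banded right libraries, with overlapping ranges. Those of Actc1 (5335 and 6237 FPKM, sham and banded), Ryr2 (72.8 and 85.4) and Pln (689 and 709) were higher, also with overlapping ranges. All 8 had values above 0 in every library. Summed endothelial markers were 296 to 416 and 397 to 582 FPKM (1 of 8 rose), mural markers 208 to 230 and 267 to 362 (2 of 8 rose), and fibroblast markers overlapped at 777 to 1118 and 667 to 1128 (2 of 8 rose). Of all tested genes 10.5% rose. Epithelia also carry desmosomes: their 8 markers summed to 0.544 to 10.7 FPKM in sham and 5.43 to 13.0 in banded right libraries. Only 2 of them were abundant enough to test, and Krt18 rose. Epcam and Cdh1 were at 0 to 0.800 and 0.298 to 1.06 FPKM in sham and at 0 to 0.410 and 0 to 0.119 FPKM in banded right libraries. Cldn7 was at 0 in all 4 sham right libraries and at 0.282 to 1.57 FPKM in the banded ones. Krt8 was at 0 in 3 sham right libraries and in none of the banded ones. Krt7, Krt19 and Cldn4 overlapped between these groups. Pancreatic markers, foreign to heart, summed to 636 to 2137 FPKM in sham and 65.7 to 155 in banded right libraries. Ins2 alone had 509 to 1475 and 46.8 to 114 FPKM. Of 5 tested, 4 fell (Ins1, Ins2, Gcg and Iapp), beside 4.93% of all tested genes. Cela1, also tested, was at 0 in 3 sham right libraries and at 0.877 to 2.64 FPKM in banded ones. Cpa1 and Prss2 were at 0 in all right libraries. The left ventricular cardiomyocyte sum was 20725 to 32173 FPKM in sham and 41448 to 50527 in banded libraries. The part of these markers in the differences of the 10 disc genes was not tested.

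Genes with the most similar profiles over the 16 libraries were found by Pearson correlation of rescaled log2 values among 6682 genes with a mean of at least 5 FPKM. For Dsp they were Mapre2 (r = 0.96), Prkar1a (0.95) and Dync1h1 (0.95), and for Pkp2 Abce1 (0.94), Gnptab (0.93) and Ash1l (0.91). Cdh2 was nearest to Rragd (0.94), Daam1 (0.94) and Ubr3 (0.92). For Jup they were Coro2b (0.88), Bcl9l (0.88) and Camta2 (0.87), and for Gja1 Slc25a13 (0.89), Fbxo21 (0.89) and Pm20d2 (0.88). No gene appears in more than 1 of these 5 trios. The libraries share groups, depth and the scaling, so these values describe likeness only.

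Other scalings set how many of the 10 genes pass in the right ventricle. Quantile normalization gave the same count of 3, rescaling with correction for length and GC content gave 2 higher and 1 lower, and TPM scaling gave 8. Of all right ventricular calls 68.15% were higher by the rule used here, 54.3% rescaled, 49.3% with quantile normalization and 41.9% with the correction. With TPM scaling 97.6% were higher and the median of all genes stood at 0.65, so its count is one of a shifted background. A fit to the right ventricular libraries alone gave 1 of 10, Dsp. Dsp and Cdh2 were above 0 and Jup and Dsg2 below it under all scalings plotted, except TPM scaling, which put Jup at 0.35 and Dsg2 at 0.09.

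**Figure D5:**
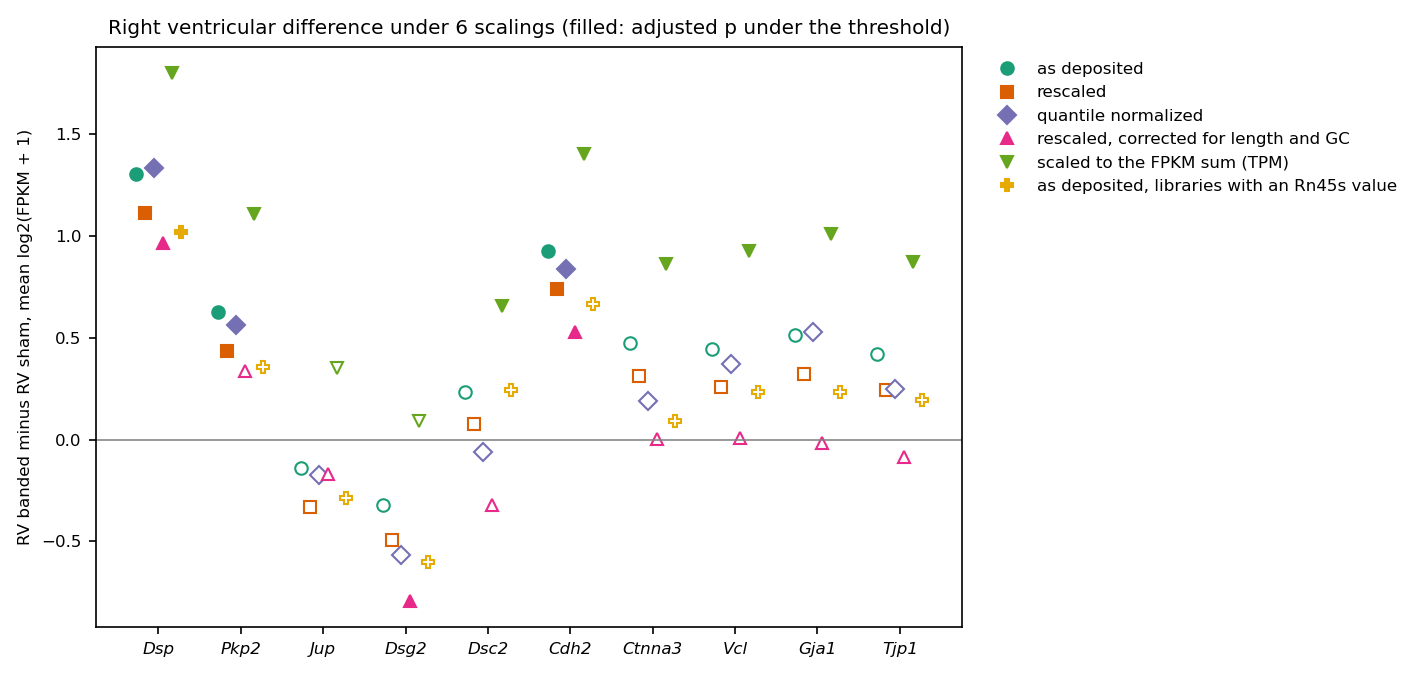
Right ventricular banding difference of each gene in mean log2(FPKM + 1) (vertical axis) under 6 scalings or selections of libraries, with filled symbols where the limma adjusted p is under 0.05. Dsp is filled under all 6, between 0.97 and 1.80, and Jup under none.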

How the data were processed

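Male FVB right and left ventricular free walls gave 16 polyA libraries, 4 per group. Nothing says whether libraries come from separate animals, so p-values cover only the spread among these libraries, possibly a technical one. Per the submitters' processing notes, FastQC 0.11.5, STAR 2.5.3a, Cufflinks 2.2.1, Cuffdiff and R 3.3.1 were used with build mm9. The deposited values are FPKM per gene and library, made by the authors. Counts were not used here.

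The 12100 genes that reached 1 FPKM in 4 or more of 16 libraries were tested as log2(FPKM + 1) with limma 3.58.1 (R 4.3.3), 4 group means, a trended prior and Benjamini-Hochberg adjustment over all tested genes. A fold change on this scale understates changes of low genes. A call needs an adjusted p under 0.05 in the same direction as deposited and after division by median-ratio scale factors (8211 genes). Shares and ratios within a library were tested by exact two-sided permutation, an addition made after seeing the data. Fragments were estimated from the lowest steps of FPKM times length, assuming 200 nt fragments. The scripts were tested on simulated data. Lengths and GC content came from a GRCm38 annotation, available for 11861 tested genes.

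The 10 genes were always named. From each of 7 partner lists, written from general knowledge (desmosome, adherens junction, connexins and pannexins, disc scaffolds and channels, costamere, trafficking, beta-catenin targets), up to 4 called genes with the smallest p in the right ventricle and up to 2 in each other comparison were named. Genes that complete a count of 5 or fewer (Tln1, Actn1, Nexn, Itgb1bp2, Nedd4) and the marker genes were named after their values were seen. The genes, lists and tests were chosen with earlier results of these data known. Some partner genes are not reported here and are not in the lists' counts. Alternatives were pseudocount 0.1, no filter or a filter at 5 FPKM, single scalings, TPM and quantile scaling, length and GC correction of the rescaled values, comparison-only fits, library weights, a replicate block, libraries with an Rn45s value only, and omission of each library. Where an alternative used both scales, its printed differences and adjusted p are those as deposited. A call there also needed the rescaled values to pass.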

Additional observations from a re-analysis of the deposited data

Results flagged for a closer look

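In 4 of 40 gene and group combinations, 1 library stood apart from the other 3 by more than Dixon's 95% limit, and chance alone gives about 1 in 20. Banded right library PS_9564 was the highest for Gja1 (296 FPKM) and for Vcl (47.3 FPKM). Sham right library 3 was the lowest for Jup (46.7 FPKM), and sham right library 2, the shallowest library, the highest for Dsg2 (12.4 FPKM).

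For 5 partner genes the banding difference itself differed between the ventricles on both scales (limma interaction, right minus left, log2 as deposited). They were 1 of 5 desmosome partners, 1 of 18 disc scaffolds and channels, 2 of 23 costamere and 1 of 16 trafficking genes tested. No gene of the other lists passed. Of all tested genes 3.98% did. The right-minus-left difference was positive for Sorbs2 (1.52), whose means were 31.7 and 98.6 FPKM on the right and 64.4 and 70.3 FPKM on the left, sham and banded. It was negative for Cav3 (-1.59; 102 and 48.0, 47.0 and 69.2 FPKM) and Ppl (-1.27; 2.34 and 0.859, 1.14 and 1.91 FPKM). The muscle LIM protein gene Csrp3 (-1.13; 1424 and 1210.2, 965 and 1816 FPKM) and Itgb1bp2, encoding melusin (-0.89; 203 and 142, 156 and 203 FPKM), were negative too. The adjusted p ranged from 0.0013 for Cav3 to 0.038 for Itgb1bp2. With each library left out in turn, only Cav3 passed in all 16 omissions, against 11 for Csrp3, 10 for Ppl, 9 for Sorbs2 and 1 for Itgb1bp2. Leaving the libraries with Rn45s at 0 out left a single banded left library, which is then assumed to vary like the other groups, and 9 genes of the whole table were called in that fit.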

How the results depend on the processing

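All values are log2 differences or counts of genes passing in limma. Every single-library omission gave 2 or 3 of the 10 disc genes passing in the right ventricle (Dsp and Cdh2 in all 16), 0 in the left and 0 for the difference between ventricles, 0 to 3 between sham and 0 to 1 between banded ventricles. Over all tested genes the omissions gave 1172 to 1992, 45 to 572, 274 to 595, 80 to 569 and 25 to 263 calls in that order, against 1871, 331, 482, 469 and 190.

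Disc genes passing in the right ventricle numbered 8 with TPM scaling and 1 with libraries with an Rn45s value or with the libraries of the comparison only. In the left ventricle 2 passed as deposited alone. For the difference between ventricles 4, 3 and 1 passed with TPM scaling, quantile normalization and rescaling. Between sham ventricles 8, 4, 4 and 2 passed with TPM scaling, quantile normalization, rescaling and length and GC correction, 2 with Rn45s values only and 0 with the comparison's libraries. Between banded ventricles 1 passed with library weights. Over all genes, right ventricular calls were 5833 (TPM), 393 (Rn45s), 1019 (weights) and 810 (comparison's libraries). Left ones were 76, 3, 1489 and 531, with 1764 as deposited and 511 with quantile normalization. For the difference they were 754 (TPM), 733 (as deposited) and 9 (Rn45s). Between sham ventricles they were 3027, 275, 260, 40, 863 (quantile) and 1043 (rescaled), and between banded ones 0 (TPM), 373 (as deposited), 4 (Rn45s) and 759 (weights). The cause was not tested.

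Same-numbered right and left libraries had deviations that correlated at -0.10 to 0.16, over 0.1 in 1 of 8 pairs, so the numbers were not taken as pairs. With a replicate block, 0, 1 and 0 disc genes and 178, 108 and 12 of all genes passed for the difference, between sham and between banded ventricles.

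Signs turned for values that did not pass here, apart from Itga7. In the left ventricle, in the order rescaled, quantile, length and GC corrected and Rn45s only, Jup was -0.17, -0.29, -0.0374 and -0.00776, Dsc2 -0.17, -0.15, -0.24 and -0.36, Cdh2 -0.21, -0.31, -0.15 and -0.0183 (TPM -0.0117) and Tjp1 -0.36, -0.37, -0.26 and -0.43 (TPM -0.17). With library weights Ctnna3 was 0.15 and Vcl 0.20. Between banded ventricles Gja1 was 0.13 rescaled, 0.40 quantile, 0.0864 TPM and 0.20 corrected. Dsp was 0.12, 0.39 and 0.0764, Jup 0.11, 0.25 and 0.0665 and Tjp1 0.0599, 0.0461 and 0.0224 (rescaled, quantile, TPM), with 0.0928, 0.0446 and 0.14 for Rn45s only. Also there, Pkp2 was 0.0844 (quantile), Ctnna3 0.0111 rescaled and 0.0242 corrected, Dsc2 0.0945 (Rn45s) and Vcl -0.0704 (weights). In the right ventricle Dsc2 was -0.0604 (quantile) and -0.32 (corrected), Gja1 -0.0144 and Tjp1 -0.0865 (corrected), Jup 0.35 and Dsg2 0.0911 (TPM) and Itga7, a partner gene that fell, 0.0511 (TPM). For the difference Dsc2 was -0.19 (weights) and -0.0809 (corrected), Jup 0.32 (TPM) and 0.12 (quantile) and Pkp2 -0.0867 (weights). Between sham ventricles Dsg2 was -0.43 (TPM) and -0.0623 (weights) and Jup -0.25 (TPM). With Rn45s values only, the left Cdh2 share difference was 0.116 percentage points and the left log2 ratio of Dsp to Dsg2 -0.0265.

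Omitting 1 library turned the sign of values near 0. In the left ventricle these were Ctnna3 (-0.13 to 0.0969), Tjp1 (-0.0983 to 0.17) and Vcl (-0.16 to 0.12). Between banded ventricles they were Ctnna3 (-0.37 to 0.0784), Dsp (-0.24 to 0.13), Gja1 (-0.28 to 0.11), Jup (-0.16 to 0.0448), Tjp1 (-0.23 to 0.0299) and Vcl (-0.000576 to 0.33). For the difference they were Dsc2 (-0.14 to 0.18) and Pkp2 (-0.0667 to 0.18), and between sham ventricles Dsg2 (-0.17 to 0.18). Share differences in percentage points were -0.202 to 0.0906 for Ctnna3 and -0.407 to 0.355 for Pkp2 on the right, and -0.155 to 0.0713 for Dsc2 and -0.578 to 0.581 for Jup on the left. Log2 ratios were -0.0154 to 0.39 for Jup to Dsg2 on the right and -0.0985 to 0.19 for Dsp to Dsg2 on the left.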

Other observations

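Among partner genes, sham right and left ventricles differed in 3. They were 1 of 16 tested trafficking genes, 1 of 18 disc scaffolds and channels and 1 of 16 adherens junction genes. Of all 12100 tested genes, 308 were called higher on the right and 161 lower. Cav3 was higher on the right (102 ± 17.5 against 47.0 ± 5.25 FPKM, SD, n = 4; log2 difference 1.09, limma adjusted p = 0.0099), and Sorbs2 (31.7 ± 7.39 against 64.4 ± 9.34) and the cadherin gene Cdh4 (0.953 ± 0.391 against 2.48 ± 0.559) were lower there. The call was kept in 16 of 16 single-library omissions for Cav3, 5 for Sorbs2 and 3 for Cdh4 (largest limma adjusted p = 0.14 for Sorbs2, as deposited). Between banded ventricles, Vasp, an actin regulator of junctions (26.3 ± 1.41 against 16.6 ± 4.87 FPKM), was higher on the right, and Perp (54.6 ± 12.6 against 99.6 ± 17.8) was lower. They were 1 of 23 tested costamere and 1 of 5 desmosome partners, with none in the other lists, beside 1.57% of all tested genes. These calls were kept in 2 of 16 omissions for Vasp (largest limma adjusted p = 0.16, as deposited) and 7 for Perp.

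Of the remaining marker lists, macrophage markers summed to 140.3 to 217 FPKM in sham and 189 to 329 in banded right libraries. Of these 1 of 8 rose, beside 10.5% of all tested genes. In the left ventricle they summed to 124 to 182 and 246 to 402 FPKM, and 2 of 8 rose, beside 2.44% of all tested genes. Mesothelial and epicardial markers summed to 10.9 to 29.1 and 9.56 to 17.0 FPKM on the right. Of 5 tested there, Krt18 rose and Upk3b and Msln fell, beside 10.5% and 4.93% of all tested genes. Atrial and conduction markers ranged from 35.5 to 285 FPKM in sham and from 25.9 to 268 in banded right libraries. Of these 3 of 8 fell, beside 4.93% of all tested genes.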
